A study of Mus musculus with 4 samples.

Results

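Spp1, Ibsp, Dmp1, Dspp and Mepe make up the SIBLING family (small integrin-binding ligand, N-linked glycoproteins), the acidic phosphoproteins that osteoblasts, osteocytes and odontoblasts secrete into mineralizing matrix. All 5 were found by symbol among the 19465 genes listed for every library and were followed across the 6357 tissue spots of 4 Visium capture areas. Each area held mid-palatal coronal sections of whole heads from wild-type C57BL/6J mouse embryos, formalin-fixed and embedded in paraffin. At embryonic day 14.5 (E14.5) replicate 1 was 1 section with an area to itself, and replicates 2,3,4 were 3 sections, here A, B and C, in 1 area. E15.5 had the same pair of areas, so that n = 2 areas per stage, all untreated and of 1 genotype. The stages lie on either side of palatal fusion, and the question asked of them is how bone formation in the palate starts. The study states biological replication for its spatial assay, but the labels do not tie sections to embryos, so every p below measures the spread between these areas only.

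Bone matrix is laid down by osteoblasts as collagen and then mineralized, and the family acts at that step. Spp1 (osteopontin) binds the integrins and Cd44 of bone cells and slows crystal growth, and is also made by osteoclasts and macrophages. Ibsp (bone sialoprotein) seeds mineral and is a mark of matrix-forming osteoblasts. Dmp1 marks late osteoblasts and osteocytes and restrains the phosphate hormone Fgf23 together with Phex, Dspp is the main non-collagen product of odontoblasts, and Mepe is a product of osteocytes that is cleaved into mineralization inhibitors. In the embryonic palate and jaws most bone forms within mesenchyme, with no cartilage model.

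The 5 genes lie in 1 run on the plus strand of mouse chromosome 5, within 270.4 kb of GRCm38.p6, in the order Dspp, Dmp1, Ibsp, Mepe and Spp1. Dspp spans 104170703 to 104180127 with 5 exons, Dmp1 104197575 to 104214102 with 6 exons, Ibsp 104299287 to 104311472 with 7 exons, Mepe 104325329 to 104338611 with 3 exons and Spp1 104435111 to 104441053 with 6 to 8 exons by transcript. RefSeq promoters of that build were matched for 4 of the 5. The 250 bases before the first start site are given for the 3 members that carry nearly all of the signal, because these 3 rose and fell together across the spots. Capitals mark TGATTGG, which holds the CCAAT box in its reverse orientation (ATTGG), and ACCACA, the core of the RUNX site.
Spp1, chr5:104434861-104435110, plus strand: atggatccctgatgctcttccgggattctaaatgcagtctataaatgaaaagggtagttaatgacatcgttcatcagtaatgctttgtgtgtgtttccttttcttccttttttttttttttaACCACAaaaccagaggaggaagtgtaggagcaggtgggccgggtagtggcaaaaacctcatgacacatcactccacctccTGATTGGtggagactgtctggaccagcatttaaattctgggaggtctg
Ibsp, chr5:104299037-104299286, plus strand: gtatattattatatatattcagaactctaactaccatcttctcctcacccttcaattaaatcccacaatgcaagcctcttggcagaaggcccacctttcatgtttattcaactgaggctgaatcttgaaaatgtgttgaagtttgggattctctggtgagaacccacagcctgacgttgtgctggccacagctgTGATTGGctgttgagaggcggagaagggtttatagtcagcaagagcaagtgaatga
Dmp1, chr5:104197325-104197574, plus strand: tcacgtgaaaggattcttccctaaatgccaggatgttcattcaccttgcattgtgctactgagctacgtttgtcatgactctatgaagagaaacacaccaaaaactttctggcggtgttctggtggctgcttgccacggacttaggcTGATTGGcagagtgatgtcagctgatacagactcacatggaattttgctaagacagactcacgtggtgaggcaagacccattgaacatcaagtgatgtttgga
TGATTGG began 48 bases before the start of Spp1, 56 before that of Ibsp and 103 before that of Dmp1, and 23 before that of Mepe, in each case on the plus strand. On either strand it stood in 7.23% of 32851 promoters of the same length, and ATTGG in 33.85%. The 7 letters were chosen after the sequences were seen. They were not found before the second start sites of Spp1 and Dmp1. ACCACA, which 14.05% of promoters held on either strand, began 128 bases before the start of Spp1, stood 2 times in the promoter of Mepe, began 164 bases before the second start of Dmp1, and was not found in the windows of Ibsp, of the first start of Dmp1 and of the second start of Spp1. Each match is a description of letters.

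The areas differed in depth. The total was 15438992 UMIs (unique molecular identifiers, 1 per captured molecule) in E14.5 replicate 1 and 67344393 to 109127953 in the other 3 areas, with medians of 6752 UMIs a spot against 45058.5 to 64051. A spot is a small region that holds several cells, and fewer cells of a type and less RNA per cell cannot be told apart in it. E14.5 replicate 1 stood apart by its depth, and section A of the other E14.5 area was also shallow, with a median of 10037.5 UMIs a spot. The areas shared 541 to 1397 barcodes in pairs and 193 in all 4, which name positions on the array and not cells. The 9 listed osteoblast genes used below as a bone score were above 0 in every area, with a summed level of 844, 1120, 902 and 1191 CPM (UMIs per 1000000 UMIs of all genes).

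Ibsp and Spp1 were abundant, Dmp1 was sparse, and Dspp and Mepe were all but absent. Over all areas Ibsp gave 223386 UMIs in 5139 spots, Spp1 92962 in 4425 and Dmp1 7404 in 2072. By their UMIs the 3 ranked 82, 395 and 7798 of 19465 genes. UMIs come from gene-specific probes and are not levels per length, so the order among genes is one of counts and not of transcripts. Dspp gave 13 UMIs in 13 spots and Mepe 14 UMIs in 14 spots, with ranks of 16488 and 16392.

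Spp1 stood at 48.7 CPM in E14.5 replicate 1 and 367 CPM in E14.5 replicates 2,3,4, and at 217 and 421 CPM in the E15.5 areas of the same numbers. Ibsp stood at 352, 575, 518 and 1351 CPM in the same order, and Dmp1 at 26.4, 21.9, 30.5 and 28.7 CPM. Spp1 was thus low in the shallow E14.5 area, Ibsp was high in the E15.5 area of replicates 2,3,4, and Dmp1 moved little between areas. The share of spots with at least 1 UMI ran from 24.3% to 85.8% for Spp1, from 63.9% to 94.1% for Ibsp and from 15.8% to 47.0% for Dmp1, and follows depth as well as level.

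**Figure D1:**
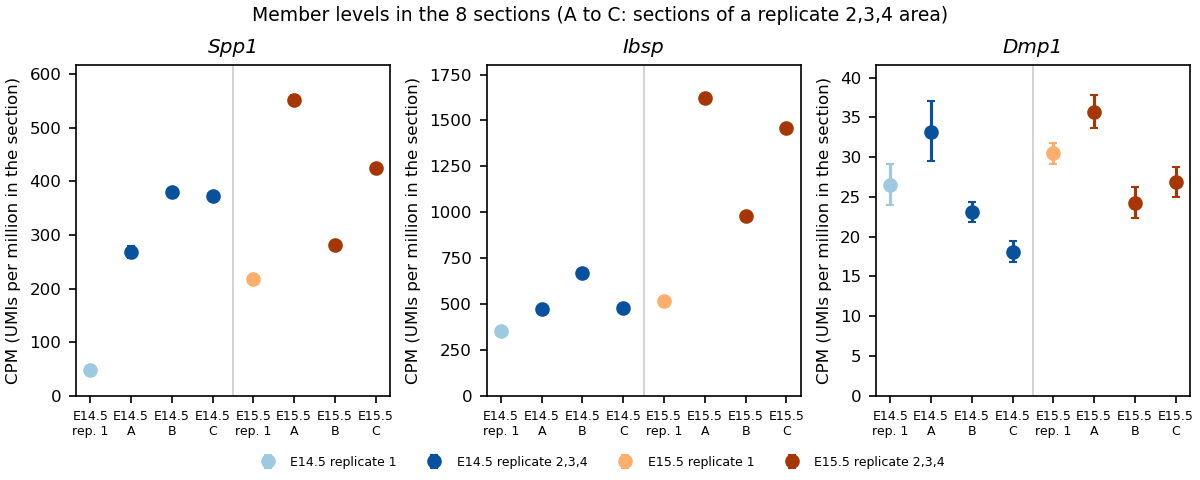
Levels of Spp1, Ibsp and Dmp1 (y axis, CPM) in the 8 sections (x axis), coloured by capture area, with exact 95% Poisson intervals that cover counting error only and are mostly smaller than the points. Spp1 is lowest in E14.5 replicate 1 at 48.7 CPM, Ibsp is highest in sections A and C of E15.5 at 1623 and 1461 CPM, and Dmp1 stays between 18.1 and 35.7 CPM.

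Sections of 1 area differed from each other. In the E14.5 area of replicates 2,3,4, Spp1 stood at 268, 380 and 373 CPM in sections A, B and C, and in its E15.5 counterpart at 552, 281 and 425 CPM. Ibsp stood at 472, 666 and 480 CPM in the E14.5 sections and at 1623, 981 and 1461 CPM in the E15.5 sections. Dmp1 stood at 33.1, 23.1 and 18.1 CPM and at 35.7, 24.2 and 26.9 CPM. Over the 4 sections of a stage the means were 268 ± 155 and 369 ± 150 CPM for Spp1, 493 ± 130 and 1146 ± 500 CPM for Ibsp, and 25.2 ± 6.32 and 29.3 ± 4.94 CPM for Dmp1 (SD, n = 4 sections at E14.5 and E15.5). The ranges of the 2 stages overlapped for all 3 members, and 3 of the 4 sections of a stage share a library.

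Across the head the 3 abundant members lay in the same few places, which were those of the osteoblast genes. Spots were scored by the summed CPM of these 9 genes, among them Runx2, Sp7, Alpl, Ifitm5, Phospho1, Smpd3 and Bglap and none of them a member, and the top 10% of each area (111, 231, 99 and 195 spots, 636 in all) were called bone-rich. The lowest score inside and the next one outside were 1776 and 1773 CPM, 2260 and 2257 CPM, 2164 and 2146 CPM, and 2918 and 2914 CPM. Those spots held 48.6% to 66.8% of the Spp1 UMIs of an area, 53.7% to 65.9% of the Ibsp UMIs and 49.8% to 64.4% of the Dmp1 UMIs.

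**Figure D2:**
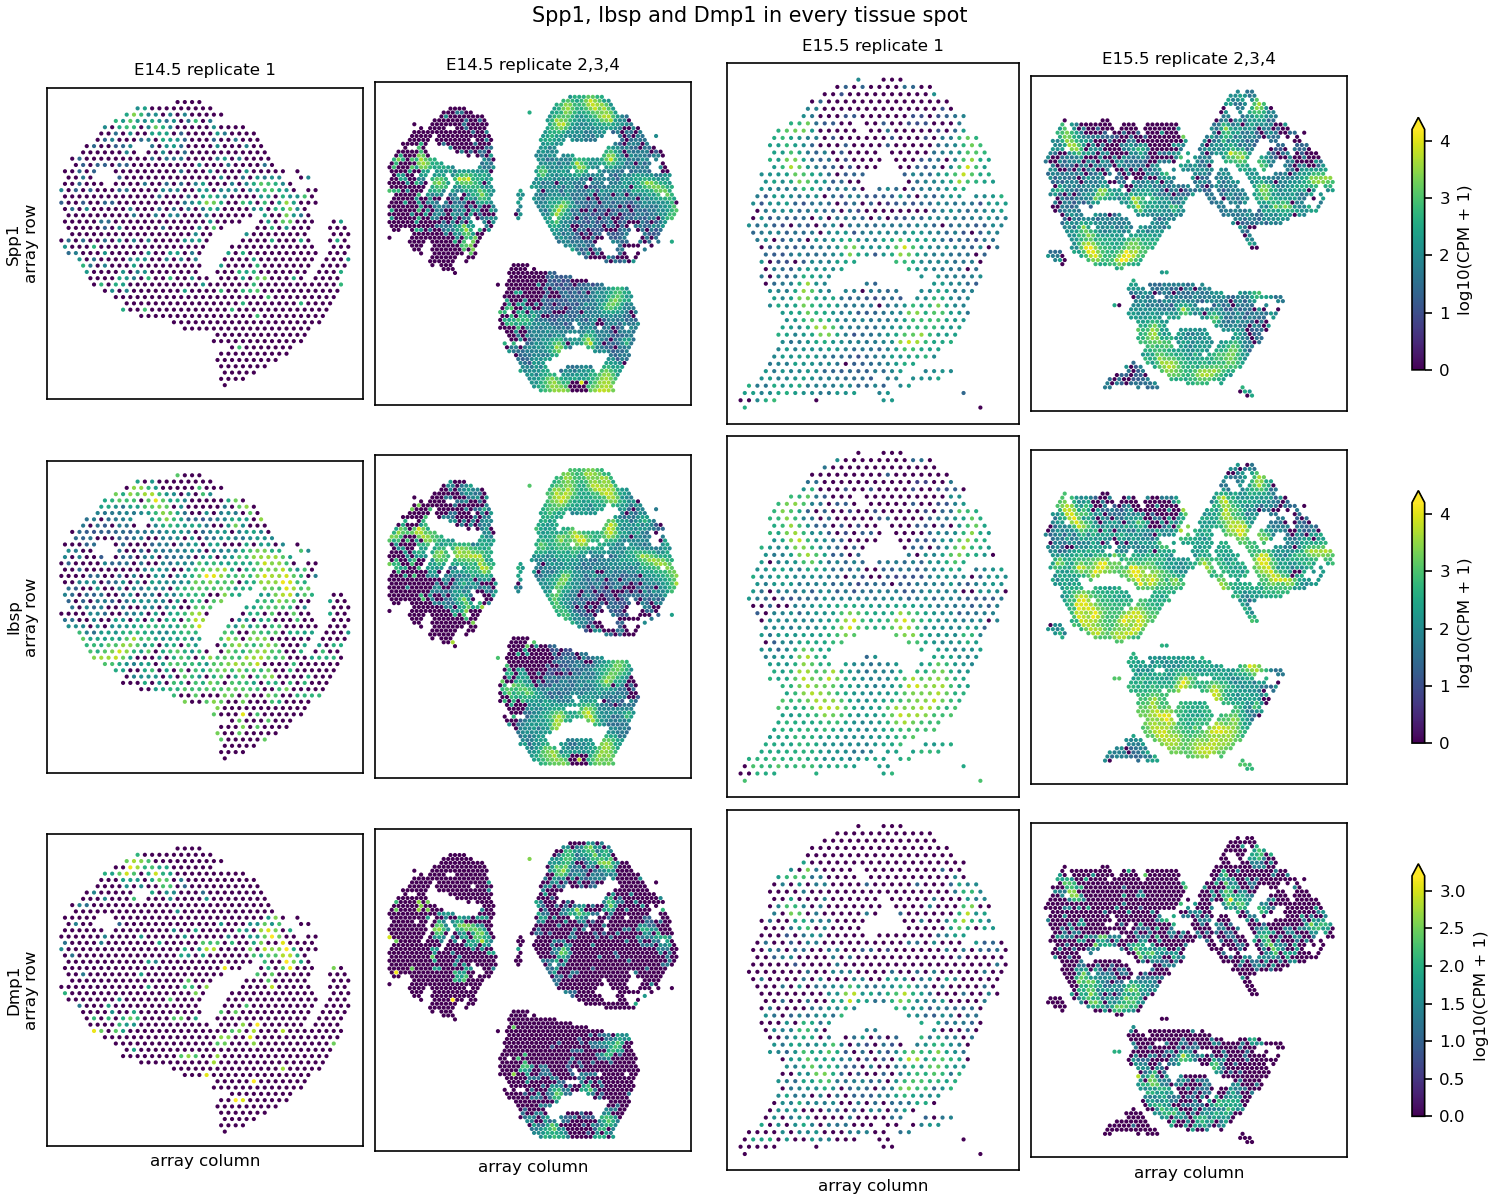
Spp1, Ibsp and Dmp1 in the tissue spots of the 4 capture areas, drawn at their array positions (axes in array columns and rows) and coloured by log10(CPM + 1), with 1 scale for Spp1 and Ibsp and a lower one for Dmp1 that 6 spots exceed. The bright patches of the 3 genes fall at the same positions in an area, in separate bodies and, in the deeper areas, with a wider faint signal of Spp1 and Ibsp.

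Ibsp stood at 1812 CPM in bone-rich against 165 in the other spots, 2915 against 225, 3143 against 219 and 6213 against 709 in the 4 areas, or folds of 8.77 to 14.4. For Spp1 the levels were 233 against 25.4 CPM, 1888 against 140, 1380 against 84.7 and 1754 against 245, or folds of 9.18, 13.4, 16.3 and 7.17. For Dmp1 they were 134 against 12.5 CPM, 109 against 8.95, 183 against 13.1 and 122 against 16.3, or folds of 10.7, 12.1, 14.0 and 7.52. Bone-rich spots were higher in 4 of 4 areas for each gene. Areas differed as much, since Spp1 in the bone-rich spots of E14.5 replicate 1 was below its level in the other spots of E15.5 replicates 2,3,4. The lowest folds of all 3 were in that E15.5 area.

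In an edgeR quasi-likelihood fit with the area as a block, the log2 fold change was 3.65 (SE 0.131, adjusted p = 0.000112) for Ibsp, 3.58 (SE 0.212, adjusted p = 0.000483) for Spp1 and 3.56 (SE 0.152, adjusted p = 0.000174) for Dmp1. Of the 14243 genes tested 16.2% were called higher and 20.7% lower at an adjusted p under 0.1. Dspp and Mepe had too few UMIs to be tested. The bone-rich set also held 24, 11, 8 and 1 spots that were led by neuron or radial glia genes. With these spots left out, a choice made after seeing the data, the log2 fold changes were 4.00, 3.91 and 3.86 for Ibsp, Spp1 and Dmp1. The difference between the stages in these fold changes had an adjusted p of 1 for each of the 3 in the same kind of fit.

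The signal fell within a few spots. Directly next to a bone-rich spot, Ibsp stood at 26.7%, 25.1%, 19.9% and 32.9% of its bone-rich level in the 4 areas. For Spp1 that share was 28.4%, 26.3%, 16.1% and 44.7%, and for Dmp1 28.0%, 28.9%, 19.4% and 36.0%. All 3 genes kept most signal in the first ring in the E15.5 area of replicates 2,3,4. At 5 spots or more, 2.04% to 4.93% was left across the 3 genes and 4 areas. Ibsp there was still at 54.1, 71.4, 107 and 219 CPM. How far transcripts spread between spots during the assay was not tested.

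**Figure D3:**
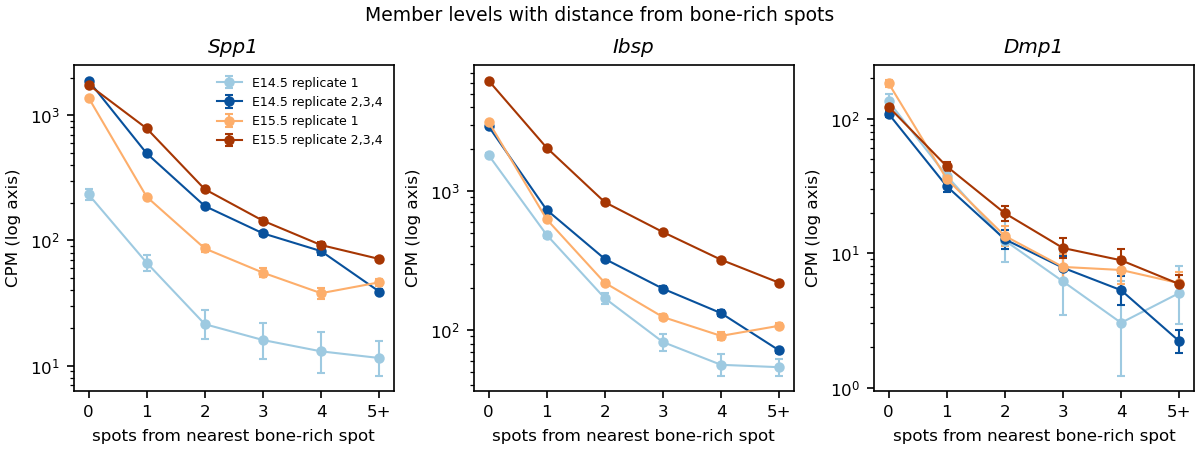
Levels of the 3 members (y axis, CPM, log axis) by distance from the nearest bone-rich spot in spots (x axis, 0 for the bone-rich spots themselves), 1 line per capture area, with exact 95% Poisson intervals for counting error. All lines fall steeply over the first 2 steps, and Ibsp in E15.5 replicates 2,3,4 lies above the other areas at every distance, from 6213 CPM to 219 CPM.

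The UMIs of each gene were concentrated in few spots. The top 1% of spots for a gene held 24.0% to 33.4% of its UMIs for Spp1, 12.8% to 24.7% for Ibsp and 17.7% to 31.4% for Dmp1. A single spot reached 885 UMIs of Spp1, 1201 of Ibsp and 89 of Dmp1. The peaks were only in part the same spots. Among the top 5% of spots for Spp1, 52.6%, 56.9%, 69.4% and 38.1% were also in the top 5% for Ibsp, a share that is the same from either side as the lists are of equal size.

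Each spot was also given to the 1 of 19 marker lists that led in it, none of which holds a member. Spots led by the bone list, by the osteoclast list or by the hypertrophic cartilage list were 10.0%, 10.9%, 11.6% and 13.1% of the spots of the 4 areas. Together they held 63.1% ± 6.95 of the Spp1 UMIs, 62.4% ± 4.13 of the Ibsp UMIs and 61.2% ± 2.80 of the Dmp1 UMIs (SD, n = 4 areas). The hypertrophic list was led by Panx3, which osteoblasts also express, at 371 to 600 CPM in its spots, while Col10a1, the defining collagen of hypertrophic cartilage, stood at 6.58, 13.1, 0.345 and 108 CPM there. These spots are therefore called Panx3-led, and they held Ibsp at 2423, 2619, 3090 and 4830 CPM and Spp1 at 250, 1234, 1061 and 1477 CPM.

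**Figure D4:**
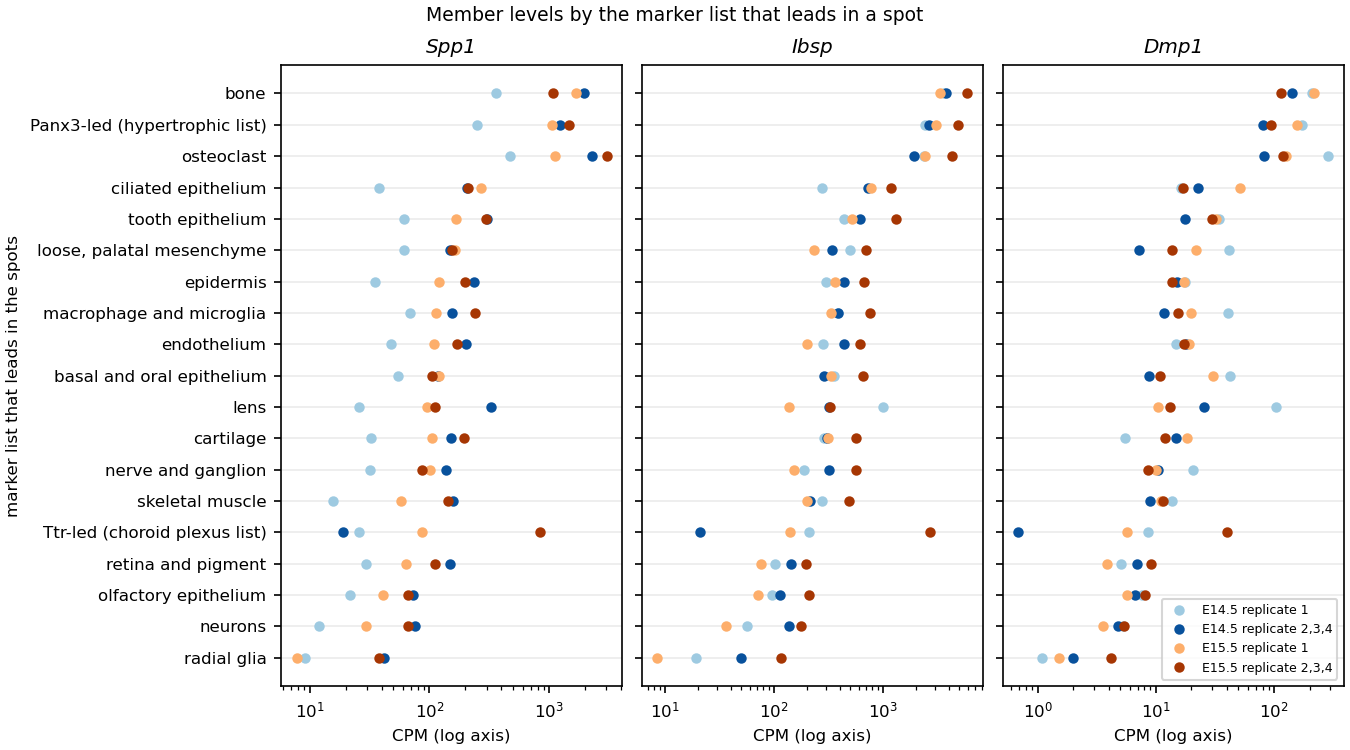
Levels of Spp1, Ibsp and Dmp1 (x axis, CPM, log axis) in spots grouped by the marker list that leads in them (y axis, ordered by the median of Ibsp), 1 point per capture area. The bone, Panx3-led and osteoclast rows stand apart on the right for all 3 genes, and the neuron and radial glia rows are lowest for Ibsp by their median over areas.

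Other tissues were lower. In spots of the cartilage list Ibsp stood at 290, 307, 315 and 562 CPM and Spp1 at 32.8, 150, 105 and 195 CPM. In neuron-led spots Ibsp stood at 56.8, 138, 36.2 and 175 CPM, Spp1 at 12.1, 75.3, 29.4 and 66.3 CPM and Dmp1 at 5.31, 4.74, 3.58 and 5.41 CPM. Neuron-led spots are given as a comparison within the same libraries and not as a blank. Among the bone-rich spots 24, 11, 8 and 1 were led by neuron or radial glia genes, and Spp1 is also made by macrophages. The tooth epithelium list led in spots with Ibsp at 437, 608, 515 and 1319 CPM. Its enamel gene Ambn was itself higher in bone-rich than in other spots, with a log2 fold change of 3.06 (adjusted p = 0.000925 by edgeR). The spots of this list are therefore not read as tooth alone. A choroid plexus list gave 97 spots in the E15.5 area of replicates 2,3,4 with Ibsp at 2670 CPM and Spp1 at 840 CPM. In those spots Ttr stood at 3136 CPM and Folr1 at 36.4 CPM, with 4 UMIs of Kl and 0 of Otx2. They are not named as that tissue.

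Ibsp was lower where osteoclast genes led than where bone genes led, and Spp1 and Dmp1 did not pass the same test. The osteoclast list (Acp5, Ctsk and Mmp9 of the resorbing cell, Ocstamp and Dcstamp of its fusion, Oscar and Calcr) led in 33, 79, 35 and 79 spots, of which 78.8% to 97.1% lay within 1 spot of a bone-rich spot and 45.5% to 73.4% were bone-rich. In them Acp5, Ctsk and Mmp9 stood at 305 to 1473 CPM, while Oscar and Calcr, the calcitonin receptor, were at 10.1 CPM or less. Bone-list spots numbered 45, 88, 37 and 112.

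Ibsp was lower in osteoclast-list than in bone-list spots in 4 of 4 areas, at 2357 against 3631 CPM, 1931 against 3763, 2447 against 3363 and 4273 against 5939. Spp1 was higher in 3 of 4 areas, at 469 against 362 CPM, 2272 against 1965, 1123 against 1673 and 3022 against 1085. Dmp1 stood at 287 against 208 CPM, 82.9 against 141, 127 against 219 and 119 against 115, with no common direction. In the edgeR fit with the area as a block Ibsp fell by 0.63 on the log2 scale (SE 0.0762, adjusted p = 0.000170), where 4.39% of 12402 genes were called lower, 4.6% higher and 9% in either direction. Spp1 had a log2 fold change of 0.37 (SE 0.219, adjusted p = 0.437) and Dmp1 of -0.38 (SE 0.142, adjusted p = 0.148), neither past the threshold. This comparison was added after the data were seen. Spp1 rested on 1 area, with a log2 value of -0.0646 without E15.5 replicates 2,3,4 (adjusted p = 0.956) and 0.75 without E15.5 replicate 1 (adjusted p = 0.0111). Bone-list spots were chosen by osteoblast genes, with which Ibsp moves across spots.

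The share of Spp1 in the sum of Spp1 and Ibsp UMIs, a ratio within a library that depth does not scale, was 12.2%, 39.0%, 29.5% and 23.8% in the 4 areas. In bone-list spots it was 9.06%, 34.3%, 33.2% and 15.4%, and in osteoclast-list spots 16.6%, 54.0%, 31.5% and 41.4%. The share was thus higher under the osteoclast list in 3 of 4 areas. Sections kept to their areas, with 36.3%, 36.4% and 43.7% in sections A, B and C at E14.5 and 25.4%, 22.3% and 22.5% at E15.5. The bone-rich spots formed 37 patches of 5 or more spots, in which the share ran from 0% to 60.3% with a median of 25.0%. Some of these shares rest on few UMIs. The patch at 0% held 0 UMIs of Spp1 and 30 of Ibsp, and a patch at 25.0% held 1 and 3. Ibsp ran from 6.72 to 7611 CPM across the patches and Dmp1 from 0 to 481 CPM.

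**Figure D5:**
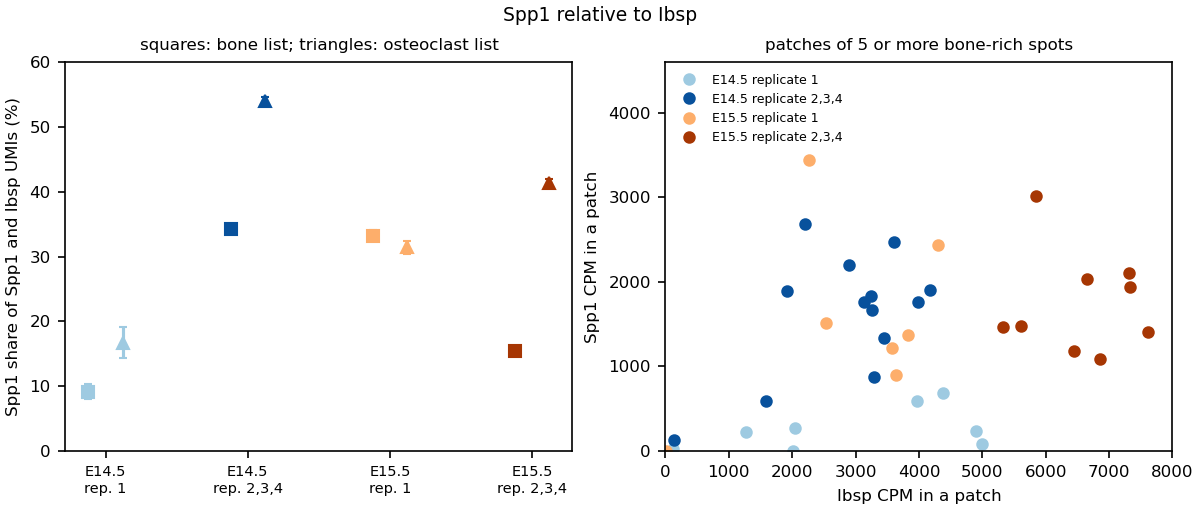
Left, the share of Spp1 in Spp1 and Ibsp UMIs (y axis, %) in bone-list spots (squares) and osteoclast-list spots (triangles) of each capture area (x axis), with exact 95% binomial intervals for counting error. Right, Spp1 against Ibsp level (both CPM) in the 37 patches of bone-rich spots, coloured by area. The triangle lies above the square except in E15.5 replicate 1, and patches of E15.5 replicates 2,3,4 lie at high Ibsp without the highest Spp1.

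The patch with the highest share, 60.3%, had 7 spots in E15.5 replicate 1, with Spp1 at 3440 CPM and Ibsp at 2269 CPM. Its osteoclast list stood at 426 CPM, below the 1104 CPM of the patch in the same area where that list was highest and the share was 26.4%. Across the patches of 1 area, Pearson's r of the share with the summed osteoclast list was -0.146 (8 patches), 0.55 (13), -0.215 (7) and 0.913 (9), as a description, since patches of an area share a library. Patches therefore had no common relation over the 4 areas. The 3 patches lowest in Ibsp, at 6.72, 113 and 139 CPM, were surrounded mainly by brain-led spots (52 of 55, 40 of 50 and 40 of 50).

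Several marker lists moved with Spp1 between areas. The summed osteoclast list stood at 134, 365, 226 and 471 CPM over all spots, the same order of areas as for Spp1. The bone score, given above, had that order too, as did the cartilage list at 2330, 3301, 2568 and 4771 CPM and the Panx3-led list at 53.4, 75.8, 68.9 and 142 CPM. The same order was seen for the lens list at 1.88, 3166, 924 and 3826 CPM. It was also seen for the loose and palatal mesenchyme list at 814, 1093, 1049 and 1467 CPM. A shared order of areas was thus not particular to bone or osteoclast genes. In bone-rich spots the osteoclast list stood at 312, 1492, 748 and 1396 CPM, with 7 of 7 genes above 0 in each area. Macrophage genes stood at 219, 222, 236 and 313 CPM over all spots. The part of any of these lists in the level of Spp1 was not tested.

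Over all spots the 3 members were found together more often than the product of their shares. Spots were thinned to 3000 UMIs so that depth was equal, which left out 356, 277, 3 and 4 spots. Spp1 was then seen in 13.9%, 31.3%, 26.6% and 35.6% of spots, Ibsp in 42.1%, 41.0%, 39.4% and 64.0%, and Dmp1 in 8.13%, 5.66%, 6.59% and 6.31%. In spots of the neuron and radial glia lists the shares were 3.96% to 14.6% for Spp1, 6.25% to 27.2% for Ibsp and 0.744% to 2.54% for Dmp1. Part of the weak detection elsewhere is no more than is seen in these spots, which are not a blank. In bone-rich spots the shares were 43.6%, 81.5%, 84.8% and 82.6% for Spp1, 77.7%, 94.4%, 91.9% and 99.5% for Ibsp, and 33.0%, 28.7%, 34.3% and 24.6% for Dmp1.

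Spp1 and Ibsp were seen in the same spot 1.85, 1.65, 1.85 and 1.33 times as often as the product of their shares. For Ibsp and Dmp1 the ratio was 1.87, 1.99, 2.03 and 1.45, and for Spp1 and Dmp1 3.90, 2.31, 2.66 and 1.92. Within bone-rich spots the ratios were 1.01 to 1.48, where the high share of Ibsp leaves little room above 1, so that they are not comparable with the ratios over all spots. Of the Dmp1 spots 78.7%, 81.7%, 80.0% and 92.7% also held Ibsp, and 98.4% to 100% of those that were bone-rich, beside an Ibsp share of 77.7% to 99.5% over all bone-rich spots. Spp1 was present in 54.1%, 72.2%, 70.8% and 68.3% of the Dmp1 spots. All 3 were seen together in 4.0%, 3.84%, 4.36% and 4.31% of spots, which was nearly the same in each area.

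Across the spots of an area Pearson's r of log2(1 + UMIs per 10000) between Spp1 and Ibsp was 0.495, 0.809, 0.855 and 0.801 (998, 2199, 989 and 1951 spots of at least 1000 UMIs). Within bone-rich spots it was 0.572, 0.539, 0.749 and 0.333. These are descriptions, with no test, as the spots share a library and their depth. Of 13024 genes compared in this way over all tissue spots, the 5 most like Spp1 by the mean r over the 4 areas were Ibsp (0.730), Dmp1 (0.663), Phospho1 (0.658), Panx3 (0.655) and Col22a1 (0.650). Those most like Ibsp were Alpl (0.749), Phospho1 (0.744), Panx3 (0.741), Sp7 (0.730) and Spp1 (0.730). Those most like Dmp1 were Spp1 (0.663), Ibsp (0.613), Panx3 (0.596), Phospho1 (0.584) and Sgms2 (0.573). Alpl and Phospho1 are the phosphatases that feed mineral, and Sp7 is the osteoblast transcription factor. Neighbouring r values in these orders differ by less than their range over areas, which for Ibsp and Spp1 was 0.472 to 0.855.

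No member passed the test between the stages. In the edgeR fit on whole areas the log2 fold change of E15.5 over E14.5 was 0.94 (SE 0.474, adjusted p = 0.769) for Ibsp, 0.52 (SE 0.781, adjusted p = 0.871) for Spp1 and 0.23 (SE 0.256, adjusted p = 0.823) for Dmp1. The areas of the stages overlapped for Ibsp and Spp1 and not for Dmp1, where 26.4 and 21.9 CPM at E14.5 lay below 30.5 and 28.7 CPM at E15.5. How many of all genes separate by stage in this way was not counted. With so few areas the order of the Dmp1 values is therefore not read as a stage difference. Of 15609 genes 0% were called, with 930 at an unadjusted p under 0.05, and DESeq2 called 37. Leaving out 1 area at a time moved Spp1 between -0.31 and 2.69, with -0.31 without E14.5 replicate 1, -0.0102 without E15.5 replicates 2,3,4 and 2.69 without the E14.5 area of replicates 2,3,4. Ibsp moved between 0.11 and 1.47 and Dmp1 between 0.14 and 0.33.

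Bone-rich spots were a fixed 10% of each area, so the amount of bone in a section can still enter their comparison. The bone, osteoclast and Panx3-led lists led in 62.2%, 81.4%, 82.8% and 84.1% of them in the 4 areas. In these spots the log2 fold change was 0.98 (SE 0.530) for Ibsp, 0.52 (SE 0.913) for Spp1 and 0.32 (SE 0.289) for Dmp1, each with an adjusted p of 0.9999 by edgeR. There 0% of 13271 genes were called, with 120 at an unadjusted p under 0.05, and DESeq2 called 0 with 101. Spp1 was again reversed without the shallow E14.5 area, at -0.30. With the brain-led spots left out, Ibsp had a log2 fold change of 0.54, Spp1 of 0.39 and Dmp1 of -0.20, each with an adjusted p of 0.9994 by edgeR. With the replicate number as a block Spp1 had a log2 fold change of 1.20 (adjusted p = 0.0605 by edgeR), past the threshold of 0.1, and Ibsp of 0.93 (adjusted p = 0.293).

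The genes that act with the family were followed as 4 lists. Over all 14243 genes tested in bone-rich against other spots, 36.8% were called, 16.2% higher and 20.7% lower. In bone-rich against other spots, 7 of 11 tested enzymes that process or phosphorylate the proteins were higher and 1 was lower, with a median log2 fold change of 0.66 against -0.045 over all genes. Phex, which binds Dmp1 and degrades peptides of Mepe, had 2.88, Mmp9 2.88, Acp5, which takes phosphate off osteopontin, 2.81, Fam20a 1.44 and Bmp1, which cleaves Dmp1 and Dspp, 0.81. Klk4, an enamel protease, was lower at -1.30. Fam20c, the kinase of the family, had 0.17 and did not pass, with an adjusted p of 0.477 by edgeR.

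Of 10 receptor genes 5 were higher and 2 lower, with a median of 0.35, beside 16.2% higher and 20.7% lower over all genes. The largest were Itgb3, the partner of Itgav in the osteopontin receptor of osteoclasts, at 1.03, Itgb5 at 0.69, Itgav at 0.58 and Cd44 at 0.50, and the lower ones were Itgb6, an epithelial integrin, at -1.40 and Itga4 at -0.79. All 5 tested regulators were higher, with Vdr, the vitamin D receptor, at 2.80, Dlx3 at 2.29, Msx2 at 0.96, Mef2c at 0.75 and Atf4 at 0.27, and a median of 0.96. Of 9 other matrix and mineral genes 8 were higher, with a median of 2.14, led by the collagenase Mmp13 at 3.95, Omd at 2.85, Col1a1 at 2.24 and Sost, an osteocyte product, at 2.21. Mgp, an inhibitor of mineralization, had -0.083 and did not pass. Genes that had chosen the spots were left out of these counts.

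Between osteoclast-list and bone-list spots, where 9% of all genes tested were called, 6 genes of the 4 lists passed. Itgb3 (1.05) and Itgav (0.44) were higher among 10 receptors. Of 8 enzymes Fam20c was higher (0.58) and Phex lower (-0.45), of 5 regulators Dlx3 was lower (-0.43), and of 9 matrix genes Mmp13 was higher (2.98). The medians of the 4 lists were between -0.12 and 0.13. Between the stages 0 genes of any list were called by edgeR on whole areas, and the list medians of 0.35, 0.25, 0.013 and 0.40 stood beside -0.0016 over all genes.

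Dspp and Mepe gave single UMIs only. Dspp had 1 UMI in each of 13 spots, 5 of them bone-rich and 8 within 1 spot of bone-rich, and 12 of them also held Ibsp and 8 Dmp1. None of the 13 was led by the tooth epithelium list. Mepe had 1 UMI in each of 14 spots, 3 of them bone-rich and 4 within 1 spot, and all 14 held Ibsp and 6 Dmp1. Of all 6357 spots 636 were bone-rich, 5139 held Ibsp and 2072 held Dmp1, shares that also follow depth. The overlap with Ibsp is therefore no sign that the genes are expressed together. Mepe was at 0 in E14.5 replicate 1, which at this depth allows up to 0.194 CPM (3 UMIs, counting error only). At these counts no place or stage can be given to either gene, and odontoblast or osteocyte expression of them cannot be read from single UMIs. Why the counts were so low was not tested.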

How the data were processed

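All 4 capture areas were analysed, with the depths given above. Per the file headers, the deposited counts are UMIs per gene and spot made by the authors with Space Ranger 1.3.1 (replicate 1) and 2.0.0 (replicates 2,3,4), and per the labels with the mouse build mm10. The version cannot be told apart from the replicate number. Columns of other samples numbered 0. Barcodes outside tissue were left out, as were spots under 1000 UMIs for scores and lists.

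A spot went to the marker list with the highest standardized mean of log2(1 + UMIs per 10000), if above 1, and sections were separated by their positions. The bone score holds a gene that is not named here. UMIs were summed per area and tested with edgeR 4.0.16 (quasi-likelihood, TMM, filterByExpr, Benjamini-Hochberg over all genes tested, adjusted p under 0.1, the false discovery rate of the study's methods) in R 4.3.3, with DESeq2 1.42.0 as an alternative. The area was a block where its spots were compared with each other. Other alternatives were no TMM, no filter, an adjusted p under 0.05, a bone-rich share of 5% or 20%, thinning to 1000 or 5000 UMIs, the replicate block, each area left out and, added later, brain-led spots left out of the bone-rich set. Scripts (Python 3.11.15) were tested on simulated data. Doublets have no meaning for spots and were not called. Intervals (exact Poisson and Clopper-Pearson, 95%) cover counting error only.

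The members, lists and tests were chosen with earlier results of these data known. All 5 members are named. From the 4 lists up to 6 genes that passed are named by the size of their change, with Fam20c and Mgp added after their values were seen. The 5 genes most like a member are those with the highest mean correlation among genes of at least 500 UMIs.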

Additional observations from a re-analysis of the deposited data

Results flagged for a closer look

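The 2 areas of replicates 2,3,4 listed 19 barcodes that lay outside the tissue (8 in the E14.5 area, 11 in that of E15.5), and these held 562491 UMIs that enter no comparison above. Among them were 109 UMIs of Spp1, 227 of Ibsp and 5 of Dmp1, more than the limit of 3 UMIs, and 0 of Dspp and Mepe. The E14.5 barcodes held 44 of Spp1 and 39 of Ibsp, and the E15.5 barcodes 65, 188 and 5 of the 3 genes. Dixon's test at 95% marked no section in 8 tests of the levels of Spp1, Ibsp and Dmp1 and of the Spp1 share, but with 4 sections, 3 of them of 1 library, it needs a very wide gap and shows little. E14.5 replicate 1 came nearest, with a gap of 0.764 of the range in the Spp1 share, at 12.1% against 36.3% to 43.7% in the other E14.5 sections.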

How the results depend on the processing

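For bone-rich against other spots, each member kept its direction and its call under 12 of 12 alternatives, with log2 fold changes from 3.39 to 4.00. The count of 5248 genes called became 1064 with no replicate block (the area not in the model), and ran from 2254 (without E15.5 replicates 2,3,4) to 6588 with 1 area left out, with 2525 without E15.5 replicate 1. Without TMM scaling 1535 genes were called higher and 5090 lower, beside 2303 and 2945.

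Between osteoclast-list and bone-list spots the count of 1116 became 332 with DESeq2, 2 with no replicate block and 330 (without E14.5 replicates 2,3,4) to 1294 with 1 area left out, with 461 without E15.5 replicates 2,3,4. Ibsp lost its call with no replicate block (-0.61, adjusted p = 1 by edgeR) and kept it under the other 8. Spp1 stayed short of the threshold in the same direction in 6 of 9 alternatives. It was reversed without E15.5 replicates 2,3,4 (-0.0646) and passed as higher in the rest. Dmp1 passed in 3 of 9 alternatives.

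For the stages on whole areas 0 genes became 37 with DESeq2 and 0 to 78 with 1 area left out (78 without E15.5 replicate 1), and Spp1 was reversed without E14.5 replicate 1 (-0.31) and without E15.5 replicates 2,3,4 (-0.0102), with 0.91 without E15.5 replicate 1 and 2.69 without E14.5 replicates 2,3,4. In bone-rich spots Spp1 was reversed without E14.5 replicate 1 (-0.30; 0.75 without E15.5 replicate 1, 2.79 without E14.5 replicates 2,3,4) and Dmp1 with the brain-led spots left out (-0.20), an alternative chosen after seeing the data. With the replicate number as a block 295 genes were called in bone-rich spots (38 higher, 257 lower) and 0 on whole areas. Areas of the same number deviated together (correlation 0.545 in bone-rich spots and 0.26 on whole areas). No label says what the 2 numbers share, and the Space Ranger version and the number of sections go with them, so the pairing was not adopted and these cannot be told apart.

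The ratio of observed to expected spots, as a mean of the 4 areas, was 2.28, 2.57 and 3.87 for Spp1 with Ibsp, Ibsp with Dmp1 and Spp1 with Dmp1 when thinned to 1000 UMIs, 1.17, 1.22 and 1.53 without thinning, and 3.04, 3.497 and 7.65 when 2 UMIs were needed. By Spearman's rho 3, 4 and 3 of the 5 genes most like Spp1, Ibsp and Dmp1 were shared with Pearson's r. Beyond fewer samples where an area was left out, the cause was not tested. With 2 areas per stage, 1 of them shallow, the stage values rest on single areas.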
